A study of Rattus norvegicus with 18 samples.

Results

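Among the small RNAs of the developing rat cortex, 18483 different sequences (tags) had a length of 26 to 30 nt, the size of Piwi-interacting RNAs (piRNAs), and were counted in both sequencing runs of at least 1 tissue sample. They were 8.66% of the 213410 tags of every length that met the same condition, which included 111705 tags of 20 to 23 nt, the size of most miRNAs. The members were chosen by length and by presence in both runs, not by their bases. Presence in both runs favours abundant tags and deep libraries, and P14, with the fewest members, had the shallowest run 1 library. Without the condition on both runs there were 517597 tags of 26 to 30 nt. The members numbered between 1123 at P14 and 9059 at E10, and 12206 of them (66.0%) were members in 1 tissue sample only. The same share for tags of every length is not given here, so whether 66.0% is particular to this size cannot be told. The 201 tags that were members in all 9 tissue samples held 48.0% of the summed level, where level is the mean over the 9 samples of the reads per 1000000 clean reads (TPM).

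The tissue came from Sprague Dawley rats at embryonic days 10, 13 and 17 (E10, E13, E17) and postnatal days 0, 3, 7, 14 and 28 (P0 to P28). P0 had 2 tissue samples and every other stage 1, and each was sequenced in 2 runs that are technical replicates, so 18 libraries came from 9 samples. The sample titles read forebrain for E10 and E13 and somatosensory cortex for the later stages. By the study's methods whole cortex was taken at E10 and E13 and dorsolateral, mainly somatosensory, cortex afterwards. Stage and tissue thus cannot be told apart for these stages. The libraries held between 4899010 and 16590379 clean reads, run 1 held no tag over 30 nt while run 2 reached 39 nt, and tags of the neural miRNAs miR-128-3p and miR-9a-5p were found in all 18 libraries, at no less than 1448 and 7813 TPM. The run 1 libraries of E13, E17, P0 replicate 1, P7, P14 and P28 stood apart by tags ending in AAC, described with the added bases.

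As background, piRNAs are made in animal germ cells, bind PIWI proteins and guide them to transposon transcripts. Primary piRNAs mostly begin with U (T in these files), and those made by the ping-pong cycle carry A at the tenth base, because both partners are cut so that their 5′ ends overlap by 10 nt. MiRNAs are cut by Dicer from hairpin precursors to shorter products, and terminal transferases can add A or U to their 3′ ends. The length of a tag alone does not tell these classes apart.

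The mature miRNAs that the leading tags began with are shown first, 5′ to 3′, with the seed (bases 2 to 8) in capitals, as RefSeq gives them for the GRCr8 build. The 3 miR-181 sequences have the same seed.
miR-181a-5p: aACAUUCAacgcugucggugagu
miR-181b-5p: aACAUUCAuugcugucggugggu
miR-181d-5p: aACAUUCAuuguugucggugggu
let-7b-5p: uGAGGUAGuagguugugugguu
miR-9a-5p: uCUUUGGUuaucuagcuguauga
miR-298-5p: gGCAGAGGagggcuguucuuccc
miR-30a-5p: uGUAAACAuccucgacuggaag
miR-301b-3p: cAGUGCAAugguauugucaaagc
miR-128-3p: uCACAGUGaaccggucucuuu
In GRCr8, miR-181a-5p lies at chr13:52037081-52037103 (Mir181a-1, plus strand) and chr3:43025601-43025623 (Mir181a2, plus strand), miR-181b-5p at chr13:52037263-52037285 (Mir181b1, plus strand) and miR-181d-5p at chr19:40888484-40888506 (Mir181d, plus strand). Of the others, let-7b-5p lies at chr7:118684044-118684065 (Mirlet7b, plus strand), miR-9a-5p at chr1:142849415-142849437 (Mir9-3, plus strand) and chr2:15933307-15933329 (Mir9-2, plus strand) and chr2:175974986-175975008 (Mir9-1, plus strand), and miR-298-5p at chr3:183470571-183470593 (Mir298, minus strand). MiR-30a-5p lies at chr9:33233946-33233967 (Mir30a, plus strand), miR-301b-3p at chr11:97384077-97384099 (Mir301b, plus strand), and miR-128-3p at chr13:42251933-42251953 (Mir128-1, plus strand) and chr8:120963807-120963827 (Mir128-2, minus strand).

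The tags of 26 to 30 nt below began with these miRNAs and are shown because they led a family or a library, or rose or fell most over the stages. Letters are as deposited. Capitals mark the bases past the last base that matched the RefSeq hairpin (for let-7b-5p, past the mature sequence), and the name gives those bases after a plus sign.
miR-181a-5p+T: aacattcaacgctgtcggtgagtttT
miR-181b-5p+T: aacattcattgctgtcggtgggtttT
miR-181d-5p+TT: aacattcattgttgtcggtgggttTT
miR-181d-5p+AT: aacattcattgttgtcggtgggttAT
let-7b-5p+TTTT: tgaggtagtaggttgtgtggttTTTT
miR-9a-5p+GAAC: tctttggttatctagctgtatgGAAC
miR-9a-5p+AAC: tctttggttatctagctgtatgaAAC
miR-298-5p+AAT: ggcagaggagggctgttcttcccAAT
miR-30a-5p+AT: tgtaaacatcctcgactggaagctAT
miR-301b-3p+T: cagtgcaatggtattgtcaaagcatT
miR-128-3p+CGTATGC: tcacagtgaaccggtctcttttCGTATGC
MiR-9a-5p+GAAC, miR-9a-5p+AAC and let-7b-5p+TTTT were also the 3 most abundant members with T as the first and A as the tenth base.

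The other tags that led a family or a library, or rose or fell most, matched no miRNA of the table and are numbered by their mean level. The table is not complete, so an unmatched tag may still be a form of a miRNA. Here capitals mark the first and the tenth base, the positions at which piRNAs are known to be biased.
unmatched tag 1: GgctggtccGaaggtagtgagttatc
unmatched tag 2: GaacaggatGaaacgctgactgatgg
unmatched tag 3: TgtaaacatCcccgactggaagctat
unmatched tag 4: TgtaaacatCcccgactggaagcttt
unmatched tag 5: CgctaaaccAttcgtagacgacctgcttc
unmatched tag 6: GcgcgggaaAtgtggcgtacggaaga
unmatched tag 7: GgccctggcGgagcgctgagaagacg
unmatched tag 8: TtctcactaCtgcacttgactagtctt
unmatched tag 9: CggccctggCggagcgctgagaagacg
unmatched tag 10: CacagtgtaGcttaatcacaaagcatct
unmatched tag 11: GccaaggatGagaactctaacctgact
unmatched tag 12: GacgatctcAcagtgaaccggtctcttt
None of these 12 had T as the first together with A as the tenth base. Unmatched tag 3 had the same base as miR-30a-5p+AT at 25 of its 26 positions, and unmatched tag 9 was unmatched tag 7 with 1 more base at the 5′ end. Unmatched tag 12 held the 21 bases of miR-128-3p after 7 leading bases.

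Tags of 26 to 30 nt made up a small part of every library, and the runs ordered the samples differently. As the mean of both runs, the share of clean reads was 2.18% at E10, 1.08 at E13, 0.490 at E17, 0.518 in P0 replicate 1, 1.11 in P0 replicate 2, 0.630 at P3, 0.365 at P7, 0.417 at P14 and 0.461 at P28. By this mean E10 had the highest value and P7 the lowest, but in run 1 the highest share was that of P0 replicate 2 (0.940%, against 0.892% at E10) and in run 2 the lowest was that of E17 (0.321%). In bulk tissue, fewer cells with such RNAs and less of them per cell cannot be told apart. The 2 P0 samples stood at 0.518% and 1.11%, with a mean of 0.814% ± 0.420 (SD, n = 2). Single libraries ranged from 0.157% in P0 replicate 1, run 1 (Wilson 95% interval 0.154% to 0.160%) to 3.46% at E10, run 2 (3.45% to 3.47%); these intervals cover counting error only. Between runs of 1 sample the share differed from 0.487 times (run 2 over run 1, E17) to 5.58 times (P0 replicate 1), and run 2 was higher in 7 of 9 samples (mean difference 0.562 percentage points, exact sign-flip permutation test over samples, two-sided, p = 0.0352).

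Across the 8 stages the share had a negative correlation with the stage order, 1 for E10 to 8 for P28 (Pearson r = -0.742, p = 0.0117; Spearman rho = -0.762, p = 0.0213; exact permutation tests over 9 samples, two-sided). Over the 10 measures tested against the stage, the adjusted p-values were 0.104 and 0.156, so that the relation did not pass the correction. Without E10 and P28 r was -0.633 and rho -0.595 (exact permutation p of rho 0.170), and without P14 and P28 they were -0.785 and -0.631 (exact permutation p of rho 0.141). Within run 1 alone rho was -0.569 (exact permutation p = 0.115) and within run 2 alone -0.510 (exact permutation p = 0.165), and without E10 alone rho was -0.659 (exact permutation p = 0.0839) and without E13 -0.719 (exact permutation p = 0.0519). The 3 embryonic samples held 1.25% ± 0.855 (SD, n = 3) and the 6 postnatal samples 0.583% ± 0.274 (SD, n = 6), a difference of 0.667 percentage points with p = 0.0833 (exact permutation test, two-sided; the smallest p this split allows is 0.0119). The number of members per 1000000 clean reads, from 54.2 at P14 to 329.8 at E10, had rho = -0.619 with the stage order (exact permutation p = 0.0816, adjusted p = 0.272).

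Within the 5 lengths, 26 nt was the most frequent in every library. Tags of 26 nt held from 61.1% to 87.7% of member reads in run 1 and from 44.8% to 75.2% in run 2. Tags of 30 nt held at most 2.95% in run 1 and 6.91% in run 2, both in P0 replicate 2. Reads of 29 and 30 nt together held 6.80% at E10, 0.661 at E13, 1.57 at E17, 2.48 in P0 replicate 1, 11.1 in P0 replicate 2, 5.64 at P3, 4.48 at P7, 8.34 at P14 and 9.18 at P28 of member reads, with no relation to the stage order that passed the test (rho = 0.485, exact permutation p = 0.187). Run 1 ended at 30 nt, and between 2.81% (E17) and 55.3% (E10) of its reads of that length were the first 30 bases of a longer tag of run 2 of the same sample.

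A large part of the member reads began as a miRNA. Of the 18483 members, 6595 (35.7%) began with at least 18 bases of a RefSeq hairpin or mature miRNA, and these held from 39.1% (E13) to 75.1% (E17) of member reads in run 1 and from 17.6% (E13) to 69.2% (P0 replicate 1) in run 2. Tags that began in a hairpin and ran past it held from 17.3% (E13, run 2) to 71.8% (E17, run 1) of member reads. Tags matched to a mature sequence that lies in no hairpin of the table held from 0.0885% (E13, run 1) to 26.3% (P0 replicate 2, run 2). Tags that lay wholly inside a hairpin held at most 0.598% of member reads in run 1, and in run 2 at most 7.00%, at E10. Among the reads that ran past the hairpin, at least 98.4% in every library had a 5′ end within 3 nt of that of a mature miRNA. Because the match began at the first base of a tag, the bases that left the hairpin were at the 3′ end by construction. They are called added bases here, and whether they were part of the RNA or came from the preparation of the libraries was not tested. The share of clean reads in members that match a miRNA was 1.38% at E10, 0.269 at E13, 0.346 at E17, 0.356 in P0 replicate 1, 0.560 in P0 replicate 2, 0.318 at P3, 0.179 at P7, 0.167 at P14 and 0.202 at P28. E10 again stood highest, and rho with the stage order was -0.728 (exact permutation p = 0.0313, adjusted p = 0.156). Members that match no miRNA held 0.796% at E10, 0.815 at E13, 0.144 at E17, 0.161 in P0 replicate 1, 0.551 in P0 replicate 2, 0.312 at P3, 0.185 at P7, 0.249 at P14 and 0.259 at P28 of clean reads, with the highest values at E13, E10 and in P0 replicate 2 (rho = -0.360, exact permutation p = 0.340).

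Counting also tags with no match, from 47.4% of the member level at P14 to 88.3% at E17 belonged to tags whose first 20 bases were those of a more abundant tag of 20 to 24 nt, that is, to longer forms of a shorter RNA. Members with neither a miRNA match nor such a shorter form held between 0.0572% (E17) and 0.526% (E10) of clean reads and numbered 282 to 2285 per sample. In these, T as the first base made up 4.29% (E13) to 28.8% (E10) of the level.

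The 3 miR-181 miRNAs, let-7b-5p and miR-9a-5p together held 61.4% of the level of members that match a miRNA. These miRNAs are abundant in the nervous system, let-7 and miR-9 as known promoters of neuronal differentiation. Summed over members that begin with it, miR-181b-5p stood at 2681 TPM at E10, 431 at E13, 264 at E17, 532 in P0 replicate 1, 605 in P0 replicate 2, 402 at P3, 202 at P7, 251 at P14 and 161 at P28. MiR-181a-5p stood at 1786 TPM at E10, 137 at E13, 157 at E17, 1016 in P0 replicate 1, 467 in P0 replicate 2, 473 at P3, 159 at P7, 123 at P14 and 80.7 at P28. MiR-181d-5p stood at 1995 TPM at E10, 269.6 at E13, 208 at E17, 477 in P0 replicate 1, 575 in P0 replicate 2, 301 at P3, 115 at P7, 117 at P14 and 76.2 at P28. All 3 were highest at E10 and lowest at P28, and none decreased at every step, since P0 replicate 1 or P0 replicate 2 stood above E13 and E17 in each.

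The leading miR-181 tags were mostly run 2 sequences. MiR-181a-5p+T was at 162 TPM at E10, 9.66 at E13, 44.0 at E17, 10.6 in P0 replicate 1, 139 in P0 replicate 2, 225 at P3, 10.3 at P7, 3.27 at P14 and 12.7 at P28 in run 1. Its run 2 levels were 2349 TPM at E10, 179 at E13, 189 at E17, 1639 in P0 replicate 1, 487 in P0 replicate 2, 419.8 at P3, 249 at P7, 186 at P14 and 115 at P28. Run 2 was higher in all 9 samples and E10, run 2, was the highest library. The slope on the stage order, fitted with edgeR to the counts of both runs, is the change in log2 level per stage step. It was -0.45 ± 0.18 (SE, n = 9, adjusted p = 0.089, edgeR) for miR-181a-5p+T, -0.33 ± 0.12 (SE, n = 9, adjusted p = 0.0703, edgeR) for miR-181b-5p+T (adjusted p = 0.034 in the edgeR fit of 18 libraries with the run as a block) and -0.39 ± 0.13 (SE, n = 9, adjusted p = 0.0493, edgeR) for miR-181d-5p+TT, whose call was lost without any 1 of 8 samples, all but E13 (adjusted p up to 0.29). MiR-181d-5p+AT, with the same mature sequence, had -0.57 ± 0.13 (SE, n = 9, adjusted p = 0.0105, edgeR), and without E10 its adjusted p was 0.172.

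Extended let-7b-5p, by contrast, was at its lowest in the earliest samples. It stood at 24.2 TPM at E10, 14.3 at E13, 257 at E17, 653 in P0 replicate 1, 2524 in P0 replicate 2, 995 at P3, 269 at P7, 274 at P14 and 245 at P28. The 2 P0 samples, from the same stage, were at 653 and 2524 TPM, and P0 replicate 2 was the highest of all 9. The tag let-7b-5p+TTTT itself was at 1.54 TPM at E10, 0 at E13, 6.13 at E17, 1.16 in P0 replicate 1, 289.5 in P0 replicate 2, 164 at P3, 0 at P7, 0.204 at P14 and 0.9998 at P28 in run 1. In run 2 it was at 2.80 TPM at E10, 3.60 at E13, 49.1 at E17, 341 in P0 replicate 1, 522 in P0 replicate 2, 191 at P3, 159 at P7, 145 at P14 and 124 at P28. In run 1 it was above 10 TPM in P0 replicate 2 and at P3 only, in run 2 in every sample from E17 on, and its slope on the stage order was 0.43 ± 0.47 (SE, n = 9, adjusted p = 0.543, edgeR).

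Extended miR-298-5p, a miRNA of an imprinted cluster, was highest at E10 and lowest at P28. It stood at 2084 TPM at E10, 175 at E13, 69.3 at E17, 77.9 in P0 replicate 1, 194 in P0 replicate 2, 162 at P3, 49.2 at P7, 20.8 at P14 and 2.65 at P28. Its leading tag, miR-298-5p+AAT, was at 251 TPM at E10, 31.2 at E13, 16.3 at E17, 7.66 in P0 replicate 1, 30.4 in P0 replicate 2, 27.009 at P3, 5.21 at P7, 2.25 at P14 and 1.10 at P28 in run 1. Its run 2 levels were 463 TPM at E10, 48.0 at E13, 11.8 at E17, 15.7 in P0 replicate 1, 15.8 in P0 replicate 2, 15.8 at P3, 7.80 at P7, 4.37 at P14 and 0.362 at P28. E10 was highest and P28 lowest in both runs, and the slope was -1.01 ± 0.16 (SE, n = 9, adjusted p = 0.00196, edgeR). Extended miR-30a-5p stood at 496 TPM at E10, 233 at E13, 230.4 at E17, 59.0 in P0 replicate 1, 77.1 in P0 replicate 2, 61.1 at P3, 62.8 at P7, 62.0 at P14 and 202 at P28, highest at E10. The slope of miR-30a-5p+AT was -0.18 ± 0.13 (SE, n = 9, adjusted p = 0.326, edgeR). Tags that begin with miR-449c-5p, named here after its values were seen, were members at E10 alone, at 1137 TPM.

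The added bases differed between the runs. In run 2 the bases past the hairpin were A and T alone in 90.3% (P28) to 98.4% (P0 replicate 1) of the reads that ran past it, with T alone in 34.4% to 63.6%. In run 1 that share was 81.0% at E10, 73.5% in P0 replicate 2 and 73.7% at P3, but only from 27.3% (P7) to 49.5% (P28) in the other 6 libraries. In those 6 libraries the added bases ended in AAC in 30.4% (P28) to 52.8% (P7) of such reads, against 1.82% to 2.97% in the run 1 libraries of E10, P0 replicate 2 and P3 and 0.288% to 2.05% in the 9 libraries of run 2.

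MiR-9a-5p carried most of the AAC ends, which were rare in run 2 of the same tissue and in 3 libraries of run 1, so that they moved with the library. Their source was not tested. The tag miR-9a-5p+GAAC was at 40.1 TPM at E10, 476 at E13, 1106 at E17, 176 in P0 replicate 1, 36.8 in P0 replicate 2, 25.8 at P3, 245 at P7, 157 at P14 and 233 at P28 in run 1. In run 2 of the same samples it was at 13.4 TPM at E10, 4.07 at E13, 14.5 at E17, 6.53 in P0 replicate 1, 8.02 in P0 replicate 2, 5.10 at P3, 7.80 at P7, 10.7 at P14 and 7.66 at P28. Run 1 was higher in all 9 samples, and the highest level, 1106 TPM at E17, stood against 14.5 TPM in the second run of the same tissue sample. MiR-9a-5p+AAC was at 32.5 TPM at E10, 525 at E13, 847 at E17, 200.2 in P0 replicate 1, 30.5 in P0 replicate 2, 26.4 at P3, 270.4 at P7, 198 at P14 and 172 at P28 in run 1, and in run 2 at no more than 12.8 TPM. MiR-9a-5p tags held from 80.9% (P0 replicate 2) to 95.6% (E17) of the run 1 reads of members ending in AAC, and miR-103-3p came second in 6 of 9 samples. Among all reads of 26 nt the AAC end was found in 19.6% to 38.3% of reads in those 6 libraries, in 1.33% to 1.43% in the other 3 of run 1 and in 0.304% to 1.22% in run 2, whereas among reads of 22 nt it was at most 0.218% in any library. With sample means over both runs, extended miR-9a-5p stood at 120.3 TPM at E10, 716 at E13, 1564 at E17, 289 in P0 replicate 1, 89.0 in P0 replicate 2, 65.7 at P3, 418 at P7, 279 at P14 and 358 at P28. These levels rest on run 1, and whether they differ between stages cannot be told apart from the difference among the run 1 libraries.

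Among tags with no miRNA match, unmatched tag 1 was the most abundant member in 4 libraries. It was at 201 TPM at E10, 7.00 at E13, 40.2 at E17, 7.81 in P0 replicate 1, 546 in P0 replicate 2, 432 at P3, 52.8 at P7, 20.004 at P14 and 13.0 at P28 in run 1. In run 2 it was at 11.6 TPM at E10, 206 at E13, 62.8 at E17, 209 in P0 replicate 1, 196 in P0 replicate 2, 157 at P3, 378 at P7, 793 at P14 and 200.4 at P28. Run 1 was highest in P0 replicate 2 and lowest at E13, while run 2 was highest at P14 and lowest at E10. The runs gave opposite slopes, -0.31 and 0.47 on the log2 scale per stage, and the summed counts gave 0.34 ± 0.16 (SE, n = 9, adjusted p = 0.131, edgeR). Unmatched tag 2 was at 59.2 TPM at E10, 349.8 at E13, 247 at E17, 219 in P0 replicate 1, 186 in P0 replicate 2, 122 at P3, 71.2 at P7, 82.5 at P14 and 23.5 at P28 in run 1. Run 2 gave 83.6 TPM at E10, 289.6 at E13, 74.9 at E17, 47.7 in P0 replicate 1, 140.0 in P0 replicate 2, 122 at P3, 31.6 at P7, 40.0 at P14 and 16.0 at P28. Here both runs were highest at E13 and lowest at P28, and the slope was -0.42 ± 0.16 (SE, n = 9, adjusted p = 0.0782, edgeR), with an adjusted p of 0.030 in the edgeR fit of 18 libraries with the run as a block.

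Unmatched tags 6, 7 and 9 were found almost only at E13. Unmatched tag 6 was at 343 and 926 TPM in the 2 runs of E13 and at no more than 0.381 TPM in any other library. Unmatched tag 7 was at 545 and 352 TPM at E13 and at no more than 1.22 TPM elsewhere. Unmatched tag 9 was at 36.5 and 205 TPM at E13 and at no more than 1.54 TPM elsewhere. Both runs of E13 showed all 3, and E13 was also the sample in which members of that sample alone held the largest part of the member level, 22.3%, against 12.4% at E10 and 0.728% to 4.62% in the other 7. Such parts are not given here for tags of every length.

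Unmatched tag 5 was the leading tag of P28, run 2. It was at 1.45 TPM at E10, 0 at E13, 0.110 at E17, 0 in P0 replicate 1, 37.4 in P0 replicate 2, 34.8 at P3, 0 at P7, 0.204 at P14 and 0.600 at P28 in run 1. In run 2 it was at 3.84 TPM at E10, 29.1 at E13, 2.17 at E17, 40.6 in P0 replicate 1, 40.7 in P0 replicate 2, 12.9 at P3, 155 at P7, 343 at P14 and 820.1 at P28. The rise to P28 was seen in run 2 only, while run 1 was above 2 TPM in P0 replicate 2 and at P3 only. The slope of the summed counts was 0.98 ± 0.17 (SE, n = 9, adjusted p = 0.0031, edgeR), against 0.02 in run 1 alone and 0.94 in run 2 alone. Unmatched tag 8 was at 80.9 TPM at E10, 24.4 at E13, 3.18 at E17, 1.45 in P0 replicate 1, 27.2 in P0 replicate 2, 48.0 at P3, 5.64 at P7, 2.86 at P14 and 2.30 at P28 in run 1. Run 2 gave 219.9 TPM at E10, 102 at E13, 9.91 at E17, 43.0 in P0 replicate 1, 15.8 in P0 replicate 2, 20.2 at P3, 56.5 at P7, 43.4 at P14 and 24.5 at P28. Its family, the tags with the same first 20 bases, stood at 799.5 TPM at E10, 142 at E13, 18.7 at E17, 47.6 in P0 replicate 1, 49.2 in P0 replicate 2, 64.4 at P3, 55.5 at P7, 41.5 at P14 and 26.8 at P28 as the mean of both runs. The family was highest at E10 and its slope was -0.47 ± 0.14 (SE, n = 9, adjusted p = 0.0286, edgeR), while that of the tag itself was -0.30 ± 0.14 (SE, n = 9, adjusted p = 0.138, edgeR).

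Unmatched tags 3 and 4, which have the same first 24 bases, had another pattern. They equal miR-30a-5p+AT at 25 and 24 positions. MiR-30d, which the paper lists among its 20 most abundant miRNAs at several stages, has no entry in the miRNA table. Whether these tags are forms of miR-30d was not tested. Shorter tags with the same first 20 bases reached, for the most abundant in each sample, from 1120.5 TPM (P0 replicate 2) to 9352 TPM (E13). The family of both was at 565 TPM at E10, 451 at E13, 561 at E17, 148 in P0 replicate 1, 166 in P0 replicate 2, 148 at P3, 200.3 at P7, 214 at P14 and 547 at P28. The 3 embryonic samples and P28 were high and the samples from P0 to P14 low, and the slope of the family was -0.04 ± 0.11 (SE, n = 9, adjusted p = 0.841, edgeR). Unmatched tag 4 was the top tag of P28, run 1, at 287 TPM, against 53.8 TPM in run 2.

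By reads, fewer members than miRNA-size tags began with T, and the result turned on how tags were counted. T was the first base of 22.7% at E10, 28.5 at E13, 58.4 at E17, 47.1 in P0 replicate 1, 38.9 in P0 replicate 2, 34.1 at P3, 52.7 at P7, 46.7 at P14 and 55.9 at P28 of member reads, as the mean of both runs. E17, P28 and P7 were high and E10 and E13 low, but the runs differed. In run 1 the share was 26.4% at E10, 46.9 at E13, 81.4 at E17, 67.5 in P0 replicate 1, 34.3 in P0 replicate 2, 30.8 at P3, 69.6 at P7, 67.9 at P14 and 77.5 at P28. In run 2 it was 18.9% at E10, 10.027 at E13, 35.5 at E17, 26.7 in P0 replicate 1, 43.6 in P0 replicate 2, 37.3 at P3, 35.8 at P7, 25.6 at P14 and 34.3 at P28. Run 1 was above run 2 in 7 of 9 samples, with 81.4% and 35.5% at E17, where the miR-9a-5p tags, which begin with T, were most abundant. The mean over samples was 42.8% ± 12.5 (SD, n = 9), below the 74.2% ± 8.63 (SD, n = 9) of tags of 20 to 23 nt in 9 of 9 samples (difference -31.4 percentage points, exact sign-flip permutation test, two-sided, p = 0.00391, the smallest it can give; adjusted over 5 comparisons 0.00651). In run 1 alone this difference was -13.9 points and did not pass the test (exact permutation p = 0.156), and with each tag counted once in place of its reads it was 0.848 points (exact permutation p = 0.621). Counted once each, 41.3% ± 9.56 of the members and 40.4% ± 6.97 of the tags of 20 to 23 nt began with T (SD, n = 9). The 74.2% of the latter by reads thus rests on abundant tags. In members counted once, no other of the first 26 positions held more T (at most 38.5%). Without tags ending in AAC, an alternative added after seeing the data, T came first in 39.9% ± 11.6 of reads (SD, n = 9). In run 2, where longer tags exist, all tags of 26 to 30 nt had T first in 28.5% ± 8.32 of reads and tags of 31 to 39 nt in 29.6% ± 14.2 (SD, n = 9; exact permutation p = 0.938), a difference of -1.11 points.

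Without the tags that match a miRNA, T as the first base was at 28.7% ± 11.8 of reads (SD, n = 9), an alternative added after seeing the data. At the other 25 positions T made up from 9.82% to 45.1%, and 7 of them held more T than the first. Counted once each, these tags had T first in 25.1% ± 4.56 (SD, n = 9), and 9 of the 25 other positions held more. These tags include unmatched tags 3 and 4, which begin with T, and may include miRNAs that the table lacks. G was more frequent than T at their first base in all 9 libraries of run 2, where it made up 40.3% to 68.8% of reads, and in 7 of 9 of run 1. In run 1 T exceeded G at E17 (61.4% against 28.7%) and at P28 (76.9% against 10.6%). With the stage order the T share of all members had rho = 0.519 (exact permutation p = 0.156); without E17 it was 0.814 (exact permutation p = 0.0184).

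A at the tenth base was also less frequent by reads than in miRNA-size tags. It was found there in 14.7% at E10, 32.2 at E13, 37.6 at E17, 34.1 in P0 replicate 1, 33.4 in P0 replicate 2, 27.9 at P3, 35.6 at P7, 32.4 at P14 and 29.9 at P28 of member reads, as the mean of both runs. By this mean E10 was the lowest and E17 the highest, but E17 had 55.8% in run 1 and 19.3% in run 2, where P0 replicate 2 was the highest at 36.0%. Without tags ending in AAC, E17 was at 24.3% and P0 replicate 2 again the highest at 33.0%. The mean was 30.9% ± 6.68 (SD, n = 9) against 72.5% ± 9.97 in tags of 20 to 23 nt, lower in 9 of 9 samples (difference -41.6 points, exact sign-flip permutation p = 0.00391, adjusted 0.00651). All tags of 26 to 30 nt in run 2 held 24.5% ± 4.62 and tags of 31 to 39 nt 18.8% ± 5.03 (SD, n = 9), and the 26 to 30 nt tags were higher in 8 of 9 samples (difference 5.71 points, exact sign-flip permutation p = 0.0117, adjusted 0.0146). In members that match no miRNA, A stood at the tenth base in 15.0% ± 5.99 of reads, and 21 of the 25 other positions held more A. Without tags ending in AAC it stood there in 24.4% ± 4.97, and with each member counted once in 29.5% ± 3.57 (SD, n = 9), where 7 of the 25 other positions held more and the difference from tags of 20 to 23 nt was -4.11 points (exact sign-flip permutation p = 0.00391). Tags of 20 to 23 nt, counted once each, had A there in 33.6% ± 4.78 (SD, n = 9). Their share by reads thus rests on abundant tags. With the stage order the A share of member reads had rho = 0.0753 (exact permutation p = 0.854).

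T as the first and A as the tenth base together marked 3.50% at E10, 11.2 at E13, 34.3 at E17, 30.2 in P0 replicate 1, 27.8 in P0 replicate 2, 21.3 at P3, 29.6 at P7, 24.8 at P14 and 19.2 at P28 of member reads, as the mean of both runs. The runs differed here too, with 53.0% and 15.5% at E17 and 21.0% and 1.40% at E13, and in run 2 P0 replicate 2 was the highest at 31.4%. Tags of 20 to 23 nt held more in 9 of 9 samples (22.4% ± 9.89 against 63.0% ± 10.7, SD, n = 9, exact sign-flip permutation p = 0.00391, adjusted 0.00651). MiR-128-3p and let-7b-5p have both bases, and tags of every length that begin with miR-128-3p reached 225107 TPM (P14, run 1). The 3 most abundant members with both bases were the 2 miR-9a-5p tags and let-7b-5p+TTTT shown above, whose bases at both positions are those of the mature miRNA.

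Few members had a partner on the opposite strand. The first 10 bases of a member were the reverse complement of those of another member of the same sample for 29 tags at E10 (0.320% of 9059), 11 at E13 (0.308% of 3567) and 2 at P3 (0.0419% of 4769). The other 6 samples had 0, which allows a share of up to 0.0415% in P0 replicate 2, the one with most members, and of up to 0.267% at P14. The same 10-base match at overlaps of 11 to 20 nt had medians from 0 to 0.168%, and the 10-nt overlap exceeded its sample's median in 2 of 9 samples, E10 and E13, where it was above each of the other overlaps. Over the 9 samples the 10-nt overlap was 0.0745% ± 0.137 and the median of the others 0.0475% ± 0.0631 (SD, n = 9; difference 0.0270 points, exact sign-flip permutation p = 0.5). In 5 samples both values were 0, so that the smallest p this test could give was 0.125 and it could not pass 0.05.

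For single tags the slope over the stages was tested, in log2 of the level per stage step, over tags of every length at once. Of the members, 3017 passed the filter of 10 counts in 2 samples and held 87.1% of the member level. The other members were left out by this filter, and the counts of a fit without it are given with the alternatives below. Of these 3017, 147 rose and 481 fell (edgeR, adjusted p under 0.05). Among all 36485 tags tested, 8.07% rose and 12.0% fell, and the members stood at 4.87% and 15.9%. The median slope was -0.15 for the members and -0.02 for all tags tested.

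Which samples entered decided much of these counts. Without E10 only 83 members fell, which was 3.35% of those tested against 4.93% of all tags tested, so that the order of both shares turned round. Without P7, P14 or P28 247, 282 or 286 members fell, where 6.41%, 7.01% or 7.56% of all tags did. Without P7, P14 or P28 95, 77 or 41 members rose, where 4.85%, 4.68% or 4.14% of all tags did. Without E10 130 members rose, 5.25% of those tested against 4.94% of all tags tested, so that these shares turned round as well. In run 1 alone 3 rose and 16 fell of 1043 tested, where 2.61% of all tags tested rose and 2.02% fell. In run 2 alone 109 rose and 348 fell of 2375, where 7.25% of all tags rose and 10.9% fell. Summed into 1264 families by their first 20 bases, 58 rose and 191 fell, where 7.94% of all 21171 families tested rose and 11.5% fell.

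Of the members that fell, 259 (53.8%) match a miRNA, and of those that rose 48 (32.7%), while 41.8% of all 3017 tested did. The fall took in 58 of 63 miR-298-5p, 51 of 55 miR-92b-3p, 14 of 18 miR-877, and 19 of 67 miR-181d-5p members, where 12.0% of all tags tested fell. The rise took in 14 of 26 members of miR-222-3p and 9 of 27 of miR-128-3p, where 8.07% of all tags rose. The 13 of 75 miR-181b-5p members that fell were a share near the 15.9% of the members. The 11 of 118 miR-127-3p members that rose were a share near the 8.07% of all tags and above the 4.87% of the members. Of the 63 miR-9a-5p members 1 fell. Members of the same miRNA share their first bases and are not independent, and these miRNAs were named after their counts were seen. Extended miR-298-5p, miR-92b-3p, miR-877 and miR-181d-5p were each highest at E10, and counts by miRNA without E10 are not given.

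The 4 largest falls with the same sign in both runs, at most 1 per family, were led by miR-301b-3p+T. It was at 252 TPM at E10, 7.42 at E13, 2.41 at E17, 0 in P0 replicate 1, 1.27 in P0 replicate 2, 0.0906 at P3, 0 at P7, 0 at P14 and 0 at P28 in run 1. Its levels in run 2 were 325 TPM at E10, 29.994 at E13, 1.52 at E17, 0.471 in P0 replicate 1, 0.358 in P0 replicate 2, 0.228 at P3, 0.479 at P7, 0.0633 at P14 and 0 at P28. It was above 1 TPM in both runs at E10, E13 and E17 only, with a slope of -2.02 ± 0.22 (SE, n = 9, adjusted p = 0.000481, edgeR). Unmatched tags 7 and 9, present almost only at E13, had slopes of -1.69 ± 0.45 (SE, n = 9, adjusted p = 0.0189, edgeR) and -1.24 ± 0.36 (SE, n = 9, adjusted p = 0.0284, edgeR), and without E13 neither passed the test (adjusted p = 0.263 and 0.571). Unmatched tag 11 had a slope of -1.24 ± 0.18 (SE, n = 9, adjusted p = 0.00142, edgeR), from 17.1 TPM at E10, run 2, to 0 in both runs at P28.

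The 4 largest rises with the same sign in both runs included unmatched tag 5, described above. Unmatched tag 10 rose by 1.03 ± 0.14 (SE, n = 9, adjusted p = 0.00113, edgeR) and reached 52.7 TPM at P28 in run 2 but 0.200 TPM in run 1. Its slope was 0.05 in run 1 alone and 1.08 in run 2 alone, so that the rise was seen in run 2. MiR-128-3p+CGTATGC rose by 1.06 ± 0.22 (SE, n = 9, adjusted p = 0.00634, edgeR) and was at 1.9995 and 2.29 TPM in the 2 runs of P28. Unmatched tag 12, which also holds miR-128-3p, rose by 0.91 ± 0.25 (SE, n = 9, adjusted p = 0.0216, edgeR) and was at 3.10 and 1.08 TPM there; without E10, E17 or P7 its adjusted p was 0.085, 0.0504 or 0.0547. At P28 miR-128-3p+CGTATGC rested on 20 and 38 reads and unmatched tag 12 on 31 and 18. Whether their extra bases were part of the RNA or came from the preparation of the libraries was not tested. Tags of every length that begin with miR-128-3p were at 1448 and 1802 TPM in the 2 runs of E10 and at 116722 and 175247 TPM in those of P28. Of the members that rose, 30 were tested in each run alone and 22 had a slope above 0 in both. Of those that fell, 151 were tested in each run alone and 150 had a slope below 0 in both. The calls came from counts summed over the same runs, so that a shared sign was partly given by the choice.

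A few members carried extra bases before a miRNA rather than after it, whose source was not tested. In 251 members a mature miRNA began after leading bases that match no hairpin, and these held 0.184% of the member level. The leader GACGATC stood before 14 different miRNAs in 30 tags, and leaders ending in GATC were found in 76 tags. The letters CGTATG stood among the added bases of 24 members.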

How the data were processed

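Total RNA of rat cortical tissue was size-selected on a gel and sequenced on the Illumina Genome Analyzer II per the labels. By the study's methods, low-quality reads, adaptors and contaminants were removed and identical reads were collapsed. The deposited counts are whole numbers of clean reads per sequence tag in each library, with no normalization by the authors, and the files name no gene. The aligner and genome build are not used here, and no genome was given, so that tags with no miRNA match carry no coordinates or origin.

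Here a tag of 26 to 30 nt was taken as a member where both runs of a tissue sample held it, and its level is the count over the total clean reads of the library times 1000000 (TPM), averaged over both runs. Library totals were between 4899010 and 16590379 reads. Tags were matched from their first base, over at least 18 bases, to 419 hairpins and 724 mature miRNAs of the RefSeq table (GRCr8), which is not complete and gave 226 miRNA names to 6595 members. The check of the labelled tissue used miR-128 and miR-9, and miR-124 was planned too. MiR-124 and miR-30d have no entry in that table.

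Stage order, 1 to 8, was tested with exact permutation tests over the 9 tissue samples, two-sided, with Benjamini-Hochberg adjustment over 10 measures, and differences within samples with exact sign-flip permutation tests. Slopes of single tags were tested with edgeR 4.0.16 (R 4.3.3, quasi-likelihood test, TMM) on counts summed over both runs, for tags of every length with at least 10 counts in 2 samples, at an adjusted p under 0.05 over all 36485 tags. DESeq2 1.42.0 was an alternative. Other steps used Python 3.11.15, numpy 2.4.6, pandas 2.3.3 and scipy 1.17.1, and the tests were tested on simulated data. Because 7 of 8 stages had 1 tissue sample and nothing says how many animals each held, p-values measure the spread between these samples.

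The runs carry the same numbers in every sample. The deviations of the run 1 libraries from the sample means correlated between samples with r from 0.190 to 0.785, above 0.1 for every pair, so a fit of 18 libraries with the run number as a block was also made. Sequences are shown for the leading tag of each of the 10 most abundant families (same first 20 bases), the leading tag of each library, the 4 largest rises and 4 largest falls with the same sign in both runs, at most 1 per family, and the 3 most abundant tags with T as the first and A as the tenth base. The members, lists and tests were chosen with earlier results of these data known.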

Additional observations from a re-analysis of the deposited data

Results flagged for a closer look

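Tags of 26 to 30 nt that only 1 run of a sample held are no members, and the report gives no comparison of them on their own. They made up 1.52% of the clean reads of E10, run 2, the highest of the 18 libraries, and 0.143% of those of P0 replicate 1, run 1, the lowest. They were picked for a count in 1 run, so that a value above 0 was given by the choice. Some settings count them too, such as the tags of either run and the slopes fitted to summed counts.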

How the results depend on the processing

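The order of the share over the stages (rho = -0.762), whose adjusted p was 0.156, no longer had an unadjusted p under 0.05 with tags of either run (-0.527), run 1 alone (-0.569), run 2 alone (-0.510), tags of 27 to 30 nt (-0.335) and without the 10 leading families (-0.377). The same held for 2 alternatives added after seeing the data, without tags that match a miRNA (-0.360) and without tags ending in AAC (-0.577), and leaving out 1 sample gave -0.826 to -0.659. The embryonic minus postnatal difference was 0.204 to 1.05 points with 1 sample left out. For T first, rho was 0.311 to 0.814 with 1 sample left out, and the difference from tags of 20 to 23 nt was 0.848 points with each tag counted once and -13.9 in run 1. For A at the tenth base, rho turned to -0.00837 without the leading families, -0.0753 without miRNA matches and -0.0753 without AAC ends, and was -0.323 to 0.275 with 1 sample left out. The overlap difference was -0.00391 points for tags of at least 10 reads and 0.00274 to 0.0382 with 1 sample left out.

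Members that rose and fell numbered 449 and 4102 with no filter (4.69% and 16.6% of all tags), 3 and 16 in run 1 (2.61% and 2.02%), 109 and 348 in run 2 (7.25% and 10.9%), 11 and 115 with counts set to 0 where 1 run held the tag (2.35% and 3.58%), 206 and 553 by DESeq2 (12.0% and 14.9%), 58 and 191 as families (7.94% and 11.5%), and 41 to 139 and 83 to 466 with 1 sample left out (4.14% to 7.51% and 4.93% to 11.2%). With the run number as a replicate block, 146 rose and 656 fell (11.5% and 17.9% of all tags), of which 110 and 464 had the same call in the fit without it. That fit takes the 2 technical runs of a sample as separate replicates, so its p-values are too small. Among the 22 tested tags with a printed sequence it changed the call of miR-181b-5p+T and unmatched tag 2, which fell with it.

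Slopes turned for 4 tags that had passed no test. They were -0.31 for unmatched tag 1 in run 1, 0.0040 in run 1 for unmatched tag 3 (-0.169 to 0.019 with 1 sample left out), and -0.45 in run 1 for let-7b-5p+TTTT (-0.033 to 1.14 with 1 sample left out). For unmatched tag 4, whose slope was 0.00, they were -0.0187 without TMM, -0.00195 with no filter, -0.0419 in run 2, -0.00201 with the block, -0.0360 as a family, and -0.242 to 0.0589 with 1 sample left out, below 0 without E10, either P0 sample or P28. The cause of these differences was not tested. Depth limits most of all the libraries of P14 and P0 replicate 1 in run 1, which held the fewest reads.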
